A study of Rattus norvegicus with 18 samples.

Results

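The cytosolic ribosomal protein genes were described in liver RNA of male rats. Members were taken by name from a table of gene levels: protein-coding rows whose symbol begins with Rpl or Rps and a number (with an ending such as a, x, y, l or l1), and Rplp0, Rplp1 and Rplp2. This gave 86 of the 33657 rows, carrying 80 symbols, since Rps27a, Rpl21, Rps4x and Rpl7a together hold 10 rows. They comprised 34 rows of the small 40S subunit, 49 of the large 60S subunit and 3 of its stalk, spread over 20 chromosomes. Per the labels the rats were 18 weeks old, and there were 6 groups of 3 libraries each. Obese rats were given orlistat, a lipase inhibitor that served as the positive control, or plantain in 3 doses (low, medium and high). The obese control and the normal control were given water, and every group but the normal control was labelled as obese. Strain, the diet that made the rats obese and the size of each dose are not in the labels. Nothing in the labels ties the libraries of a group to different animals, so they may in part be technical repeats. The p-values rest on the spread between libraries of a group, pooled over all 6 groups. They do not measure the spread of the compared groups alone, nor with certainty that between animals.

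The cytosolic ribosome is built from ribosomal RNA and a set of proteins that are needed in nearly equal numbers, and their genes are among the most highly expressed in any cell. The stalk proteins P0, P1 and P2 recruit the factors that drive translation. Many ribosomal protein mRNAs begin with a C followed by a run of pyrimidines, the 5′ terminal oligopyrimidine (TOP) tract, through which mTORC1 and Larp1 control their translation when nutrients or growth signals change. The genome also carries many processed copies of these genes, so short reads can be shared between near-identical rows.

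The starts of these genes were read from RefSeq promoter entries (build GRCr8), which were found by symbol for 60 of the 80 symbols. The entry for Rps9l1 lay on chromosome X while its row was on chromosome 1, so that start may belong to another locus. A start was called TOP-like where a C lay within 3 bases of the annotated start and was followed by at least 4 letters that were each C or T, read on the gene's own strand. Of the 60 symbols, 30 matched, which is 50% (95% Clopper-Pearson interval 36.8% to 63.2%, covering counting error only), beside 11.2% of all 33469 promoter entries. Entries of mitochondrial ribosomal proteins matched in 11 of 65 cases (16.9%) and those of proteasome subunits in 4 of 37 (10.8%). The starts of 5 members with a match and 3 without one are shown, each from 10 bases before the annotated start, because their levels are described further on. Other members without a match, such as Rpl6, Rpl36 and Rpl41, are also described further on and are not shown. Capitals mark the C and its run of pyrimidines:
Rplp1: cgcatgtgatCCTTTCCTCagctgcc
Rpl12: aacatccgtCTTTTCggctttcggtt
Rpl17: ttcgcgcttCCTCTTCCTgttagcgg
Rpl10: gtgggagcgtCTCTTTTCCTCTggcg
Rpl13: cggtgcccgatCCTTTCCgctcggcc
Rpl7l1: cagatgcattgtgggaagcctttaac
Rps27l: ttcatttgtcattatttgtggtgtcc
Rps6: ctcctaggcggtcggctgtgtcaaga
They lie at chr8:71290857-71290882 (minus strand), chr3:36661930-36661955, chr18:70856266-70856291, chrX:157205840-157205865, chr19:68062504-68062529, chr9:21695708-21695733 and chr8:76443648-76443673 (plus strand) and chr5:106420525-106420550 (minus strand), in the order listed. A match describes letters near an annotated start, and its absence says nothing about the mRNA, whose true first base may differ.

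The levels were FPKM, which scales fragments to the length of a gene and to the depth of a library, and 16.6 to 26.2 M (mega) whole reads or fragments per library could be recovered from them. Groups were compared with limma on log2(FPKM + 1) over the 11945 genes that reached 1 FPKM in 3 or more libraries, and a gene is called here where its Benjamini-Hochberg adjusted p was below 0.05. The largest rises and falls were named only where groups did not overlap. Of all genes tested, 62.5% did not overlap between the obese and normal controls. Against the obese control this held for 58.2% with orlistat and for 44.8%, 49.2% and 57.8% at the low, medium and high doses. Of the 80 members tested it held for 60, 66, 30, 58 and 64 in the same order. The deposited scale carries a further factor per library (0.966 to 1.05 times the recovered total) that differs between groups, so results were also taken as TPM. TPM removes this factor but also scales each library to its summed FPKM, so its shifts are not due to the factor alone. A voom fit to the recovered reads also lacks the factor. Hepatocyte markers were abundant in every library, with 9 of 9 present and a summed level of 86922 to 108162 FPKM. Of the 86 members, 80 passed the filter on low values. The other 6 were Rpl3l, known from heart and skeletal muscle (at most 0.304 FPKM), Rpl39l, known from testis (at most 0.284 FPKM), Rpl30l1 (0.113 FPKM in 1 library and listed at 0 in the rest), the Rpl21 row on chromosome 3 (at most 0.55 FPKM), and Rpl23a and Rpl10a, which were listed at 0 in all 18 libraries while other rows named for the same proteins held the reads. Member genes were short, with a median length of 665.5 bases against 1159 over the whole table, and 48 of the 86 averaged 100 FPKM or more.

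Ribosomal protein transcripts took a larger share of the recovered reads in the obese control than in the normal control. The share was smaller with orlistat and with the 2 higher plantain doses. All members together took 0.851% ± 0.00669 of the reads with orlistat, against 1.12% ± 0.0135 in the obese control (mean ± SD, n = 3 throughout). Over the plantain doses the share was 1.11% ± 0.00944 at the low dose, 0.943% ± 0.0128 at the medium dose and 0.920% ± 0.00251 at the high dose, and in the normal control it was 1.01% ± 0.0106. The obese control and the low dose therefore overlapped at the top, orlistat lay below every other library, and the medium and high doses lay below the normal control. Set against the obese control, orlistat stood at 76.3% ± 1.10, the low dose at 99.6% ± 1.47, the medium dose at 84.6% ± 1.54 and the high dose at 82.5% ± 1.02, while the obese control stood at 110.5% ± 1.77 of the normal control. The shares are given with their spread and no test; an exact permutation test of 3 libraries against 3 cannot give a p below 0.1. As a share of summed FPKM in place of reads, the obese control stood closer to the normal control, at 105.6% ± 1.77. The members' median log2 difference between the 2 controls was 0.18. It was 0.058 on the TPM scale and 0.073 with the trend on gene length taken out. In bulk tissue, fewer cells of a type and less RNA per cell cannot be told apart. Of 13 mitochondrially encoded transcripts, 11 were called higher in the obese control than in the normal control (median log2 difference 0.35). Relative to the obese control all 13 were called lower with orlistat (-0.58) and at the high dose (-1.05). At the medium dose 12 were called lower (-0.36) and at the low dose 8 (-0.25), where the members' median was -0.0048. Among all genes tested, 26.7% were called higher in the obese control than in the normal control. Called lower than in the obese control were 25.6% with orlistat and 25.3%, 20.1% and 14.8% at the high, medium and low doses. Rescaling without the mitochondrially encoded transcripts gave a members' median of 0.16 in the obese control relative to the normal control. Relative to the obese control the members' medians were -0.40 with orlistat, -0.019 at the low dose, -0.25 at the medium dose and -0.31 at the high dose. Over all genes the medians under that scaling were -0.019, 0.036, -0.00041, 0.029 and 0.017 in the same order.

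**Figure D1:**
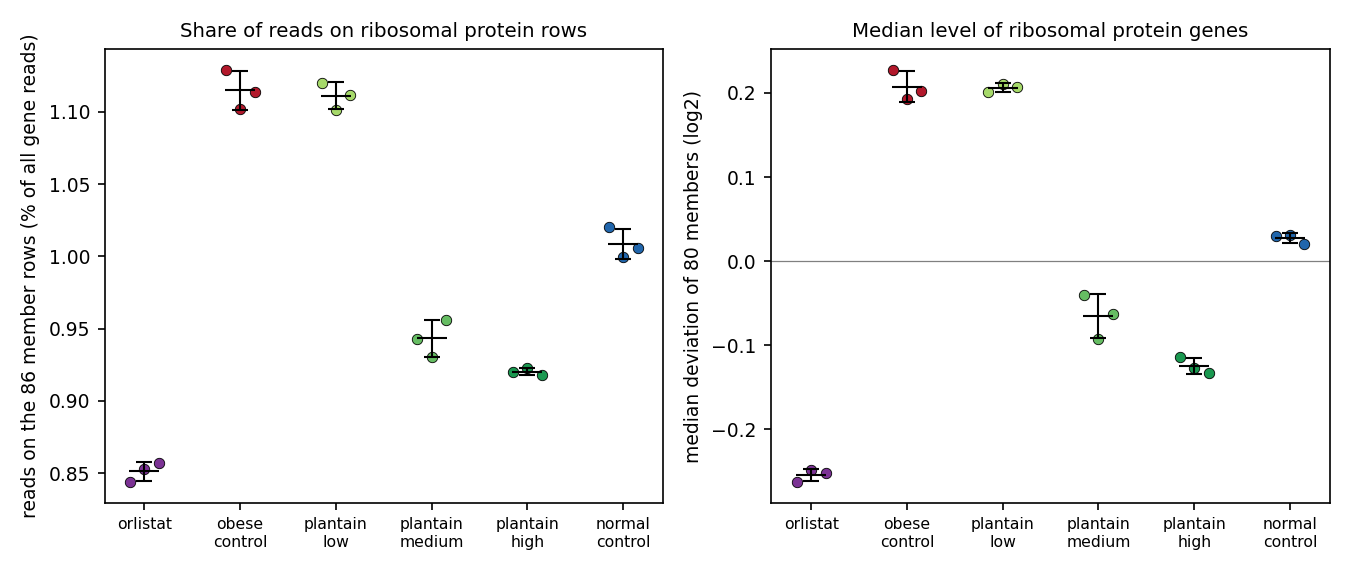
The share of recovered reads on all 86 members (percent) and the median log2 deviation of the 80 tested members are plotted per library as points with the group mean and SD, for orlistat, the obese control, the low, medium and high plantain doses and the normal control. The orlistat libraries lie lowest, near 0.851%, and the obese control and low-dose libraries lie highest, near 1.12% and 1.11%.

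The order of the groups was similar for most members. An F-test over the 6 groups called 70 of the 80 tested members, beside 72.1% of all genes tested. The obese control had the highest mean for 35 members and the low dose for 34, while orlistat had the lowest mean for 60 and the high dose for 10. The median of the members within a library, as a log2 deviation from the mean of all libraries, lay from -0.26 to -0.25 with orlistat, 0.19 to 0.23 in the obese control, 0.20 to 0.21 at the low dose, -0.09 to -0.04 at the medium dose, -0.13 to -0.11 at the high dose and 0.02 to 0.03 in the normal control. Libraries of a group thus lay within a few hundredths of each other, and no orlistat, medium-dose or high-dose library overlapped the obese control. The 10 members the F-test left out were Rps29 (adjusted p 0.051), Rps19, Rps19l2, Rps21, Rps18l1, Rps9l1, Rplp2, the Rps27a row on chromosome 5, the Rpl21 row on chromosome 12 and 1 of the 2 Rpl7a rows on chromosome 3.

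**Figure D2:**
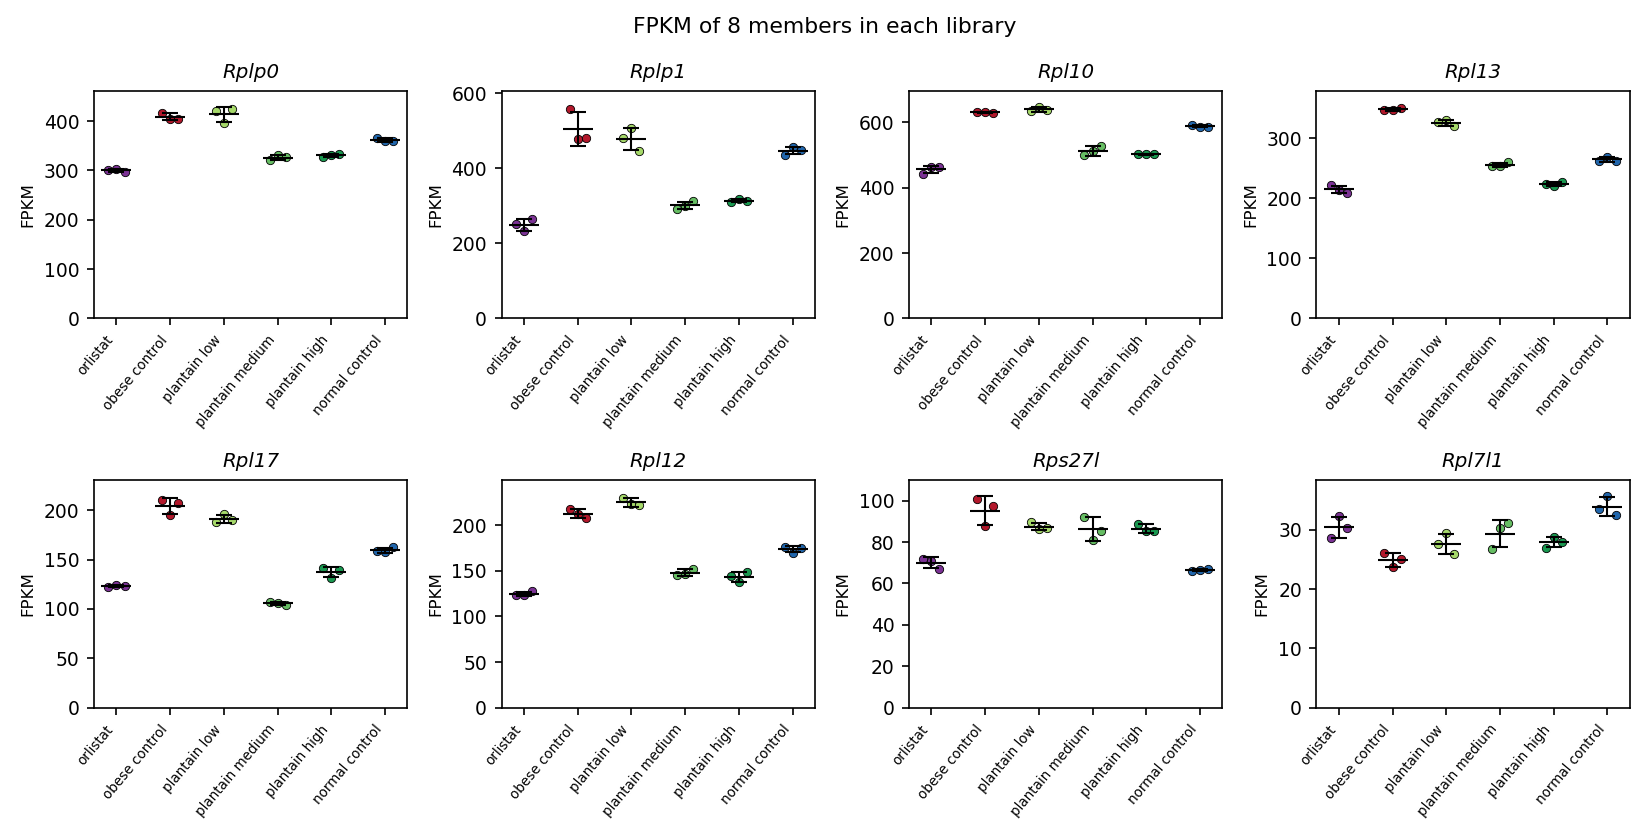
The levels of Rplp0, Rplp1, Rpl10, Rpl13, Rpl17, Rpl12, Rps27l and Rpl7l1 are plotted per library (FPKM, linear axis from 0) with the group mean and SD, with orlistat left of the obese control, then the 3 plantain doses and the normal control. Libraries of a group lie close together, and for all but Rpl7l1 the orlistat libraries lie below the obese control.

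In the obese control against the normal control, 49 of the 80 tested members were called higher and 4 lower, with 27 not called and a median log2 difference of 0.18. Of all genes tested, 26.7% were called higher and 28.4% lower. Higher members were 18 of 34 in the 40S subunit, 29 of 43 in the 60S subunit and 2 of 3 in the stalk. Rpl18, a 60S protein, had 314, 313 and 307 FPKM in the obese control, against 228, 220.2 and 228 FPKM in the normal control. The log2 difference was 0.46 ± 0.023 (SE, adjusted p 1.39e-10). The groups did not overlap, which the choice of the largest rises required. Rpl13, whose start is shown among the TOP-like ones, had 347, 346 and 351 FPKM in the obese control, against 262, 269 and 263 FPKM in the normal control, a log2 difference of 0.39 ± 0.021 (adjusted p 2.43e-10). All 3 obese control libraries lay above all 3 normal control libraries for both genes.

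Among called members whose groups did not overlap, the row of Rpl30, a 60S protein, had the largest single difference, at 0.67 ± 0.077 (log2, SE, adjusted p 2.55e-06), with 239.7, 239 and 258 FPKM in the obese control, against 165, 148 and 150.5 FPKM in the normal control. The L30-like row LOC100362027 ran the other way, with 90.1, 94.5 and 88.1 FPKM in the obese control, against 127, 134 and 122 FPKM in the normal control. Their sum on the scale of Rpl30 differed by 0.18 ± 0.053 (adjusted p 0.00947). Rpl13a, a 60S protein that in human monocytes also takes part in translational silencing, stood at 6.05, 4.96 and 5.01 FPKM in the obese control, against 2.99, 3.27 and 3.27 FPKM in the normal control. Rps27l, a relative of Rps27 that is a p53 target in human cells, stood at 101, 87.5 and 97.4 FPKM in the obese control, against 66.2, 66.3 and 67.2 FPKM in the normal control. Each of these had every obese control library above every normal control library, as that choice required. Rps4y2 was called higher (0.54 ± 0.16, adjusted p 0.00808), but not without the third obese control library (0.38, adjusted p 0.0503) nor when its reads were summed with those of the other S4 rows (0.056, adjusted p 0.16).

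The 4 members called lower in the obese control were Rpl7l1, Rpl10l, Rps16 and the Rpl21 row on chromosome 13. Rpl7l1, a relative of Rpl7 whose counterpart in yeast takes part in ribosome assembly, had 26.1, 23.7 and 25 FPKM in the obese control, against 33.5, 35.7 and 32.6 FPKM in the normal control, a log2 difference of -0.43 ± 0.061 (adjusted p 2.11e-05). Rps16, a 40S protein, had 90.1, 91.3 and 95.4 FPKM in the obese control, against 104, 98.5 and 102 FPKM in the normal control (log2 difference -0.14 ± 0.036, adjusted p 0.00463). Neither pair of groups overlapped, which the choice of the largest rises and falls required. Rpl10l, a relative of Rpl10 that is expressed in mouse testis, was called lower (-0.25 ± 0.079, adjusted p 0.0158), but not without the second normal control library (-0.22, adjusted p 0.0549) or the second obese control library (-0.21, adjusted p 0.0632). The Rpl21 row stood at -0.23 ± 0.061 (adjusted p 0.00555), and at -0.29 (adjusted p 0.0632) when all L21 rows were summed.

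On the TPM scale 28 members were called higher and 7 lower in the obese control, beside 15.3% and 35.1% of all genes. The TPM scale moved the median gene by -0.12 (log2) in this comparison, and the members' median became 0.058. In the voom fit the median gene moved by -0.050, and 45 members were called higher and 4 lower, with a members' median of 0.13. With the trend on gene length taken out the members' median was 0.073. Of all calls in the comparison, 48.5% were higher on the deposited scale, 30.4% on the TPM scale and 41.1% in a voom fit to the recovered reads.

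Orlistat had the lowest levels of ribosomal protein transcripts. Relative to the obese control 64 of the 80 tested members were called lower, 1 higher and 15 not called, with a median log2 difference of -0.46, beside 25.6% of all genes called lower and 26.2% higher. The lower members were 23 of 34 in the 40S subunit, 39 of 43 in the 60S subunit and 2 of 3 in the stalk, with medians of -0.41, -0.50 and -0.72. Rpl10, which joins the 60S subunit late in its assembly and had the highest mean level of all members, had 443, 462 and 464 FPKM with orlistat, against 631, 632 and 629 FPKM in the obese control. All orlistat libraries lay below all obese control libraries, by -0.47 ± 0.020 on the log2 scale (adjusted p 3.32e-11). Rpl13 had 221, 214 and 209 FPKM with orlistat, against 347, 346 and 351 FPKM in the obese control (-0.69 ± 0.021, adjusted p 7.08e-13).

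Several members of the 60S subunit fell further with orlistat. Rplp1, a stalk protein, had 252, 233 and 265 FPKM with orlistat, against 557, 479 and 480.2 FPKM in the obese control, and fell by 1.01 ± 0.058 on the log2 scale (adjusted p 1.14e-09). Rpl12, at the base of the stalk, had 123, 124 and 127 FPKM with orlistat, against 217, 212 and 207 FPKM in the obese control. Rpl17, which lines the exit tunnel, had 122, 125 and 123 FPKM with orlistat, against 210.1, 195 and 208 FPKM in the obese control. For these 3 members the highest orlistat library lay far below the lowest obese control library. Rpl35, near the tunnel exit, had 299, 311 and 299 FPKM with orlistat, against 497, 494 and 494 FPKM in the obese control. Rps20, in the head of the 40S subunit, had 314, 324 and 313 FPKM with orlistat, against 471, 454 and 444 FPKM in the obese control. Again no library of the groups overlapped. Among the other highly expressed members, Rpl41, the smallest ribosomal protein, had 449, 489 and 434 FPKM with orlistat, against 648, 650.0 and 615 FPKM in the obese control. Rpl36, a 60S protein, had 316, 321 and 297 FPKM with orlistat, against 466, 499 and 475 FPKM in the obese control. Both were called lower (-0.48 and -0.62), also at the high dose (-0.48 and -0.29).

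Among members with the smallest F-test p, Rpl6, a 60S protein, had 200, 201 and 207 FPKM with orlistat, against 312, 309 and 320.1 FPKM in the obese control (-0.63 ± 0.023, adjusted p 5.85e-12). Rps15, near the decoding region of the 40S subunit, had 243, 247 and 243 FPKM with orlistat, against 384, 364 and 379 FPKM in the obese control (-0.62 ± 0.027, adjusted p 3.61e-11). Rpl3, near the catalytic centre, had 63.4, 66.3 and 64.1 FPKM with orlistat, against 83.2, 80.6 and 81.1 FPKM in the obese control (-0.33 ± 0.029, adjusted p 1.24e-07). In each case the orlistat and obese control libraries were apart. Rpl39, a short protein of the exit tunnel, averaged 14.1 FPKM with orlistat and 19.8 FPKM in the obese control (-0.47 ± 0.073, adjusted p 6.05e-05).

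A few members were not called or went the other way. Rps29, a zinc-binding protein of the 40S subunit, had 301, 338 and 285 FPKM with orlistat, against 322, 324 and 326 FPKM in the obese control, and the groups overlapped (adjusted p 0.441). Rps27, also of the 40S subunit, had 266, 275 and 273 FPKM with orlistat, against 282, 282 and 280.1 FPKM in the obese control, with no overlap but no call (log2 difference -0.05, adjusted p 0.181). Rpl7l1 was the 1 member called higher, with 28.6, 32.3 and 30.3 FPKM with orlistat, against 26.1, 23.7 and 25 FPKM in the obese control (0.27 ± 0.061, adjusted p 0.00137). Its relative Rpl7 stood at 50.6, 50.8 and 50 FPKM with orlistat, against 69.7, 65.9 and 67.4 FPKM in the obese control.

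On the TPM scale 56 members were called lower with orlistat and 3 higher, beside 12.1% and 38.9% of all genes, with a members' median of -0.29 while the median gene moved by 0.16. In the voom fit the median gene moved by 0.091, and 60 members were called lower and 1 higher, with a members' median of -0.37. With the length trend taken out the members' median was -0.33. Higher calls were 50.6% of all calls on the deposited scale, 76.3% on the TPM scale and 65.8% in the voom fit. One Rpl7a row was named among the largest falls (12.6, 4.57 and 8.42 FPKM with orlistat, against 15.2, 13.3 and 20.1 FPKM in the obese control, adjusted p 0.029). It was not called without the first or the third obese control library or without the second or the third orlistat library (adjusted p 0.0521 to 0.155). Nor was it called after all rows of its protein, including rows outside the members, were summed (-0.18, adjusted p 0.576).

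Against the normal control, a comparison added after the data were seen, orlistat had 56 members called lower and 1 higher, beside 24.3% and 19.8% of all genes, with a median of -0.30. Of all calls 44.8% were higher on the deposited scale and 56.5% on the TPM scale. The 1 higher member was Rps28, a 40S protein, with 117, 134 and 119.8 FPKM with orlistat, against 99.8, 92.1 and 94.6 FPKM in the normal control. Rplp1 had 252, 233 and 265 FPKM with orlistat, against 437, 457 and 448 FPKM in the normal control, and its log2 difference was -0.84 ± 0.058 (adjusted p 9.98e-09).

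The 3 plantain doses were each compared with the same obese control libraries that served for orlistat, so the comparisons are not independent. At the low dose the members stayed near the obese control, with 10 called higher, 10 lower and 60 not called, beside 18.3% and 14.8% of all genes, and a median log2 difference of -0.0048, which turned positive on the TPM scale and with the length trend taken out (0.038 and 0.036). At the medium dose 57 were called lower and 2 higher, beside 20.1% and 21.8% of all genes, with a median of -0.28. At the high dose 60 were called lower and 3 higher, beside 25.3% and 26.6% of all genes, with a median of -0.34. As a percentage of the obese control the median member stood at 99.7% at the low dose, 81.9% at the medium dose and 79.0% at the high dose, and at 72.9% with orlistat and 88.4% in the normal control. At the medium dose 35 of 43 tested 60S members and 20 of 34 in the 40S subunit were called lower, and at the high dose 35 and 23.

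**Figure D3:**
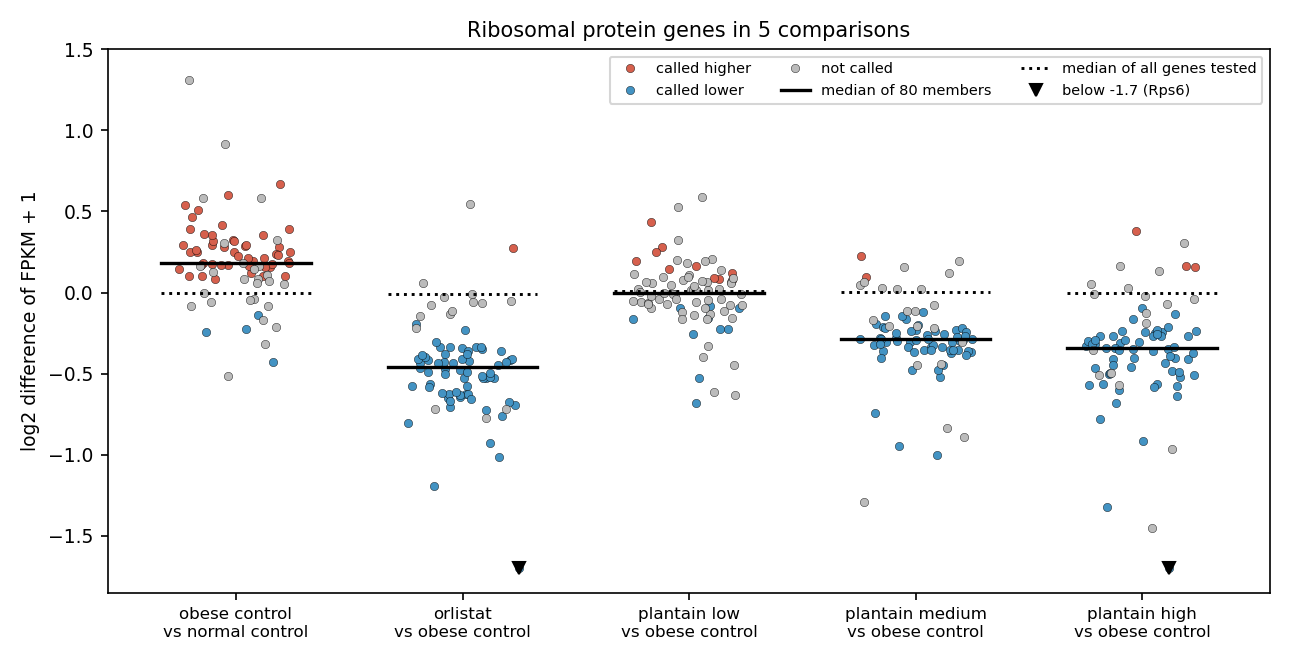
The log2 difference of each tested member from its comparison group is plotted, 1 point a member, for orlistat and the plantain doses against the obese control and for the obese control against the normal control, with calls marked, the median of the members as a solid line, that of all genes tested as a dotted line, and Rps6 drawn at the lower edge where it lies beyond it. Medians lie at -0.46 for orlistat, -0.0048, -0.28 and -0.34 for the low, medium and high doses and 0.18 for the obese control against the normal control.

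Single members differed in how their levels ran over the doses. Rpl17 had 210.1, 195 and 208 FPKM in the obese control, 188, 196 and 189.7 FPKM at the low dose, 107, 106 and 104 FPKM at the medium dose and 141, 132 and 139 FPKM at the high dose. The medium-dose libraries were the lowest of the series for this gene and lay 0.95 ± 0.030 (log2, adjusted p 2.1e-12) below the obese control. Rpl12 had 217, 212 and 207 FPKM in the obese control, 230.1, 223 and 222 FPKM at the low dose, 146, 146 and 152 FPKM at the medium dose and 144, 138 and 148 FPKM at the high dose. The low dose lay above the obese control, and both higher doses lay far below it and overlapped each other. Rpl35 had 497, 494 and 494 FPKM in the obese control, 430.3, 415 and 427 FPKM at the low dose, 391, 384 and 386 FPKM at the medium dose and 333, 313 and 335 FPKM at the high dose. Its libraries did not overlap between any of these groups. Rplp1 had 481, 507 and 447 FPKM at the low dose, 292, 301 and 312 FPKM at the medium dose and 310.1, 319 and 313 FPKM at the high dose. It fell by 0.74 ± 0.058 (adjusted p 6.33e-08) at the medium dose and by 0.68 ± 0.058 (adjusted p 1.1e-07) at the high dose. Rpl19, a 60S protein, fell by 0.48 ± 0.040 at the medium dose (adjusted p 1.32e-07).

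Between doses, in comparisons added after the data were seen, 55 members were called lower and 2 higher at the medium dose against the low dose, beside 12.2% and 10.8% of all genes, with a median of -0.28. At the high dose against the low dose 58 were called lower and 1 higher, beside 16.4% and 16.2% of all genes, with a median of -0.33. Higher calls were 46.8% of all calls for medium against low and 49.7% for high against low on the deposited scale, and 65% and 83.0% on the TPM scale, which moved the median gene by 0.13 for high against low. In the voom fit they were 66.9% and 72.6%, and with the mitochondrial genome left out 64.6% and 61.7%. Rpl13 had 327, 329.7 and 319.8 FPKM at the low dose, 253, 254 and 259.5 FPKM at the medium dose and 223, 221 and 227 FPKM at the high dose. The 3 doses did not overlap for this gene.

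At the low dose the members that rose included Rpl5, which binds 5S ribosomal RNA and restrains Mdm2, Rpl9 and Rpl7, all of the 60S subunit. Rpl5 had 254, 252 and 251 FPKM at the low dose, against 224, 226 and 225 FPKM in the obese control, a log2 difference of 0.17 ± 0.017 (adjusted p 2.28e-06). Rpl9 had 111, 111 and 107 FPKM at the low dose, against 95.9, 97.2 and 93.7 FPKM in the obese control (0.20 ± 0.050, adjusted p 0.00632). Rpl7 had 74.3, 76.5 and 74.1 FPKM at the low dose, against 69.7, 65.9 and 67.4 FPKM in the obese control (0.14 ± 0.024, adjusted p 0.000219). None of the 3 pairs overlapped, which the choice of named members required. The Rpl21 row on chromosome 13 and the Rps4x row on chromosome 4 were also called higher (0.28 and 0.25), but not after the rows of their proteins were summed (adjusted p 0.0717 and 0.0573).

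Members called lower at the low dose included Rpl18, with 264, 277 and 259 FPKM at the low dose, against 314, 313 and 307 FPKM in the obese control (-0.22 ± 0.023, adjusted p 2.53e-06). Rpl10l had 9.05, 7.63 and 8.12 FPKM at the low dose, against 12.7, 11.7 and 12.6 FPKM in the obese control (-0.53 ± 0.079, adjusted p 9.36e-05). The groups did not overlap for either gene, which the choice of the largest falls required. Rpl13a was called lower at 4.3, 4.37 and 4.24 FPKM, but not without the first obese control library (-0.18, adjusted p 0.191) nor without any 1 of the 3 low-dose libraries (adjusted p 0.0799 to 0.102).

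The members called higher at the high dose were Rpl10l, Rps16 and Rpl7l1. Rpl10l had 13.8, 17.3 and 18.2 FPKM at the high dose, against 12.7, 11.7 and 12.6 FPKM in the obese control, a log2 difference of 0.38 ± 0.079 (adjusted p 0.000953). Rps16 had 106, 104 and 100.3 FPKM at the high dose, against 90.1, 91.3 and 95.4 FPKM in the obese control (0.16 ± 0.036, adjusted p 0.00128). High-dose libraries lay above all obese control libraries for both, which the choice of the largest rises required. Rpl7l1 stood at 0.23 ± 0.061 (adjusted p 0.00731) at the medium dose and 0.16 ± 0.061 (adjusted p 0.0402) at the high dose, and the high-dose call was lost without the second or the third obese control library or the second or the third high-dose library (adjusted p 0.0747 to 0.149).

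On the TPM scale 19 members were called higher and 6 lower at the low dose, beside 20.2% and 10% of all genes, with a members' median of 0.038. The counts were 4 higher and 48 lower at the medium dose, beside 28.8% and 11.1% of all genes, with a median of -0.19. At the high dose 7 were called higher and 43 lower, beside 40.2% and 11.6%, with a median of -0.16, while the median gene moved by 0.17. Higher calls were 55.3%, 51.9% and 51.3% of all calls at the low, medium and high doses on the deposited scale, and 66.8%, 72.1% and 77.6% on the TPM scale. In the voom fit they were 64.5% at the medium dose and 65.4% at the high dose. The members' medians in that fit were 0.00065, -0.23 and -0.26 at the low, medium and high doses. With the length trend taken out the medium-dose median was -0.23 and the high-dose median -0.22.

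In the stalk, P0 and P1 were lower with orlistat and at the medium and high doses, while P2 varied too widely between libraries to be called. Rplp0 had 300.1, 303 and 296 FPKM with orlistat, against 417, 405 and 405 FPKM in the obese control (-0.45 ± 0.023, adjusted p 3.25e-10). At the low, medium and high doses it had 421, 396 and 424 FPKM, 320.5, 331 and 326 FPKM, and 327, 330.4 and 334 FPKM. The medium and high doses overlapped, and both lay between orlistat and the normal control, which had 366, 359 and 359.8 FPKM. Rplp2 had 24.0, 94.9 and 3.94 FPKM with orlistat, 110.0, 54.9 and 7.47 FPKM in the obese control and 5.19, 143 and 113 FPKM in the normal control. Libraries of the same group differed more than the groups did, and it was called in none of the 5 planned comparisons (adjusted p 0.483 to 0.961). A row named LOC498555, a P2-like gene, was steadier, at 51.1, 52.3 and 49.2 FPKM with orlistat, against 86.7, 84.8 and 83.8 FPKM in the obese control.

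The spread between libraries of a group was small for most members and very large for a few. The pooled within-group SD on the log2 scale had a median of 0.055 over the 80 tested members and 0.083 over all genes tested, and 0.054 over the 4049 genes at 10 FPKM or more. It was at most 0.2 for 68 members and above 0.5 for 7, beside 3.01% of all genes above 0.5. Those 7 were Rplp2 (2.21), Rps6 (1.12), 1 of the Rpl7a rows on chromosome 3 (0.76), Rps9l1 (0.62), Rps19l2 (0.60), the Rpl21 row on chromosome 12 (0.56) and Rps19 (0.52), the gene most often mutated in human Diamond-Blackfan anaemia. Next came the other Rpl7a row (0.45). The table also holds 81 rows named for the same proteins, 63 of them with reads, that carried 4.52% of the reads of members and such rows together. When each member was replaced by the sum over all rows of its protein, 3 members stayed above 0.5: Rps6 (1.03), Rps9l1 (0.62) and Rplp2 (0.59). Rps9l1 had no other row named for its protein, so summing could not change its value.

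Rps27a, made as a fusion with ubiquitin, showed this most clearly. Its row on chromosome 14 had 114, 119.9 and 105 FPKM with orlistat, against 337, 164 and 314 FPKM in the obese control. Its row on chromosome 5 had 183, 183 and 186 FPKM with orlistat, against 144, 277 and 138 FPKM in the obese control. In the obese control the library that was low on chromosome 14 was the one that was high on chromosome 5. Summed on the length of the first row, the protein had 327, 331 and 319.7 FPKM with orlistat, against 504, 485 and 474 FPKM in the obese control, and the pooled SD was 0.043, against 0.39 and 0.37 for the single rows. The sum stood at -0.58 ± 0.033 (adjusted p 1.06e-09) with orlistat, beside -1.19 ± 0.29 (adjusted p 0.00278) for the chromosome 14 row alone. That row was also called lower at the medium dose (-1.0, adjusted p 0.0116), but not without the first (-0.81, adjusted p 0.0587) or the third obese control library (-0.86, adjusted p 0.0506), while the sum at the medium dose stood at -0.42 (adjusted p 6.73e-08) and at the high dose at -0.45 (adjusted p 2.08e-08).

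**Figure D4:**
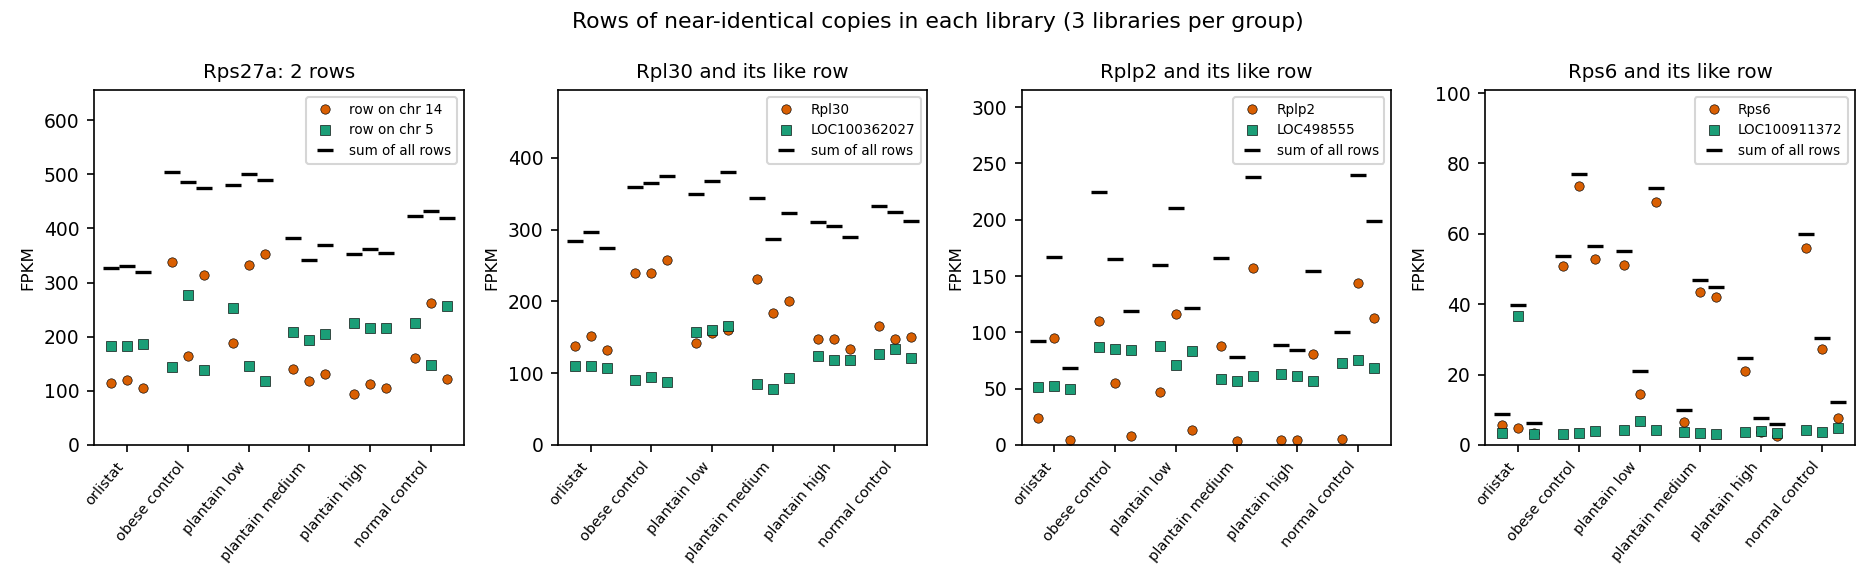
For Rps27a, Rpl30, Rplp2 and Rps6, the level of each row and of the sum over rows of the same protein is plotted per library (FPKM), by group. The 2 Rps27a rows mirror each other in the controls and their sum is tight at 474 to 504 FPKM in the obese control, while the Rps6 sum stays as scattered as its rows.

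Rpl30 behaved likewise with a row on chromosome 10, LOC100362027, named as L30-like. Rpl30 had 142, 156 and 161 FPKM at the low dose, against 239.7, 239 and 258 FPKM in the obese control, a call of -0.68 ± 0.077 (adjusted p 5.09e-06). The L30-like row had 157, 160.4 and 166 FPKM at the low dose, against 90.1, 94.5 and 88.1 FPKM in the obese control. The rows moved in opposite directions, and their sum was not called (350.1, 368 and 380.0 FPKM at the low dose, against 359, 364 and 375 FPKM in the obese control, log2 difference -0.00053, adjusted p 0.996). With orlistat Rpl30 had 137, 152 and 132 FPKM, all below the obese control (-0.80 ± 0.077, adjusted p 3.96e-07), and the sum had 284, 297 and 275 FPKM (-0.36, adjusted p 3.79e-05). Rps12, a 40S protein, scattered at 52.1, 112 and 101 FPKM at the high dose, against 149, 165 and 164 FPKM in the obese control, while the sum of its rows was even, at 193, 208 and 199 FPKM at the high dose, against 311, 299 and 301 FPKM in the obese control.

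Rps6, the 40S substrate of S6 kinase downstream of mTORC1, remained uneven. It had 5.64, 4.68 and 3.28 FPKM with orlistat, against 50.9, 73.6 and 52.7 FPKM in the obese control (-3.45 ± 0.83, adjusted p 0.00255). It had 51.1, 14.4 and 69.0 FPKM at the low dose, 6.49, 43.5 and 41.9 FPKM at the medium dose and 21.1, 3.8 and 2.64 FPKM at the high dose. The normal control had 56.0, 27.1 and 7.53 FPKM and so overlapped all 3 doses. An S6-like row on chromosome 5, LOC100911372, had 3.3, 36.7 and 3.18 FPKM with orlistat, against 3.03, 3.42 and 3.83 FPKM in the obese control, so the second orlistat library held most of its S6 reads there. Summed over rows, S6 stood at -2.13 (adjusted p 0.0282) with orlistat and -2.45 (adjusted p 0.0136) at the high dose relative to the obese control. The part of such copies in the Rps6 values was not tested further.

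The named relatives of ribosomal proteins were found at varied levels. Rps27l had 72.0, 71.0 and 67.0 FPKM with orlistat, against 101, 87.5 and 97.4 FPKM in the obese control (-0.44, adjusted p 2.41e-06), while Rps27 was not called. At the low, medium and high doses Rps27l had 89.7, 86.1 and 86.7 FPKM, 92.3, 81.0 and 85.3 FPKM, and 88.9, 85.2 and 85.5 FPKM. Its 3 dose groups overlapped, all above the normal control. Rpl22l1 had 29.0, 28.7 and 32.4 FPKM with orlistat, against 35.5, 32.9 and 38.0 FPKM in the obese control (-0.23, adjusted p 0.00592). Rpl10l stayed under 20 FPKM in every library, where Rpl10 was above 400 FPKM. No difference between a relative and its namesake was tested as such.

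Short genes as a whole also shifted between groups. Among genes outside the list, the median log2 difference with orlistat relative to the obese control was -0.22 under 500 bases, -0.18 from there to under 1000, -0.07 to under 2000, 0.03 to under 4000 and 0.13 at 4000 or more. Members in the same classes had medians of -0.48, -0.48, -0.42, -0.50 and -0.42, over 21, 36, 16, 6 and 1 members. At the high dose relative to the obese control the members' medians were -0.36, -0.34, -0.28, -0.48 and -0.23, where the other genes had -0.22, -0.16, -0.05, 0.03 and 0.11. The members thus lay below the other genes in every class, and long members lay as low as short ones with orlistat. In the obese control against the normal control the members had 0.17, 0.21, 0.17, 0.19 and 0.10, and the other genes 0.07, 0.19, 0.05, -0.04 and -0.12.

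**Figure D5:**
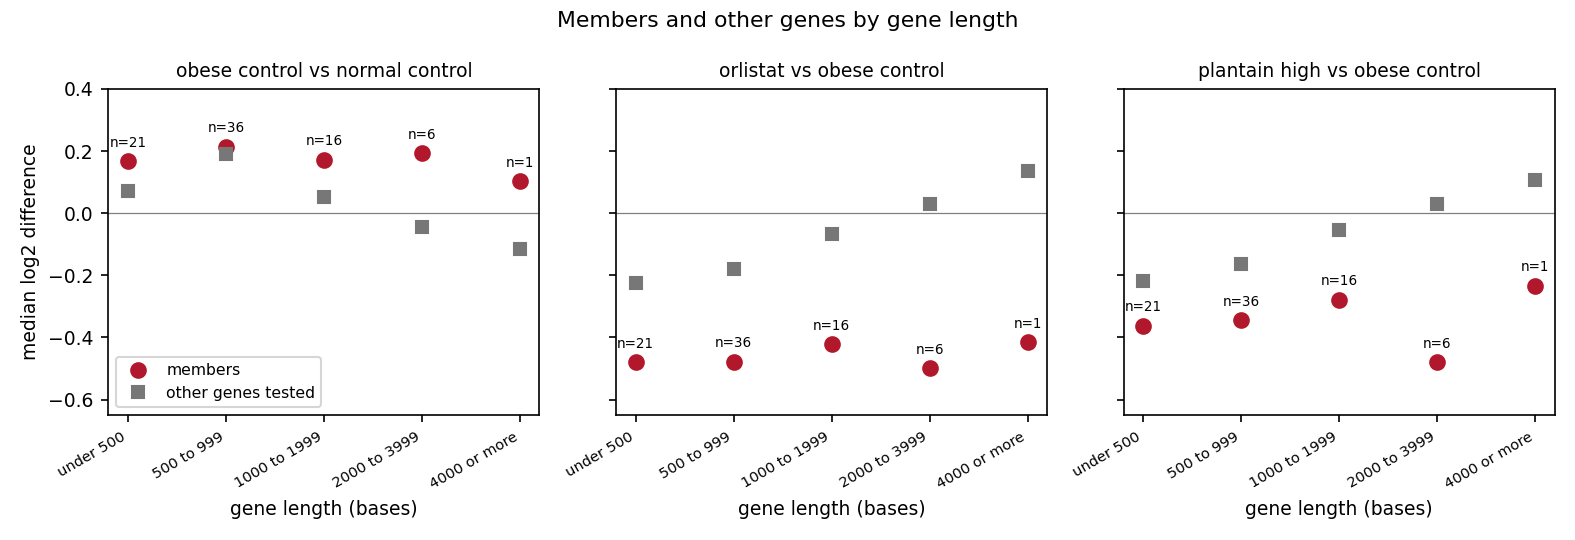
The median log2 difference by gene length class (bases, horizontal axis) is plotted for members and for all other genes tested, for orlistat and the high dose against the obese control and the obese control against the normal control. With orlistat the other genes run from -0.22 in the shortest class to 0.13 in the longest, while the members lie between -0.50 and -0.42 throughout.

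Members with and without a TOP-like start were set side by side over the symbols with a single tested row and a promoter entry. With orlistat relative to the obese control, 25 of 27 members with a match were called lower and 0 higher (median -0.56), and 20 of 26 without a match were called lower and 1 higher (median -0.46). At the high dose 26 of 27 with a match and 20 of 26 without were called lower (medians -0.41 and -0.30), and at the medium dose 24 and 17 (medians -0.33 and -0.27). In the obese control against the normal control 21 with a match and 17 without were called higher (medians 0.18 and 0.20). Beside these, 25.6% of all genes tested were called lower and 26.2% higher with orlistat. Lower calls made up 25.3% of all genes at the high dose and 20.1% at the medium dose. Higher calls made up 26.7% in the obese control against the normal control. The difference between the 2 classes was not tested, and the annotated starts limit the classes. Rplp1, Rpl12, Rpl17, Rpl10 and Rpl13, whose starts are shown above, are in the first class, and Rpl7l1, Rps27l and Rps6 in the second. The second class also holds Rpl6, Rpl36 and Rpl41, which were called lower with orlistat. Rps9l1, whose promoter entry lay on another chromosome than its row, is counted in that class too.

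Other genes of the ribosome moved with the members. Among ribosomal proteins outside the naming rule, 5 were tested, and all 5 were called lower with orlistat (median -0.45), 4 at the medium dose (median -0.29) and 4 at the high dose (median -0.29) relative to the obese control, with 0 called in either direction at the low dose. In the obese control against the normal control 4 were called higher and 0 lower. Among all genes tested, 25.6% were called lower with orlistat, 20.1% at the medium dose and 25.3% at the high dose. The low dose had 18.3% called higher and 14.8% lower. For the obese control against the normal control the shares were 26.7% higher and 28.4% lower. Rpsa, a 40S protein, averaged 248 ± 3.13 FPKM with orlistat and 346 ± 5.05 FPKM in the obese control (-0.48, adjusted p 1.4e-11). Rack1, the scaffold on the 40S head, averaged 61.9 ± 0.954 FPKM with orlistat and 84.5 ± 1.81 FPKM in the obese control.

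Translation factors and genes of ribosome assembly were mixed. Of 27 translation factors, 15 were called lower and 6 higher with orlistat, and 4 lower and 8 higher at the low dose. At the medium dose 15 were called lower and 3 higher, and at the high dose 15 lower and 7 higher. Of all genes tested, 25.6% were called lower and 26.2% higher with orlistat, and 14.8% and 18.3% at the low dose. The shares were 20.1% and 21.8% at the medium dose and 25.3% and 26.6% at the high dose. Tpt1, whose mRNA is a known TOP mRNA, averaged 943 ± 29.0 FPKM with orlistat and 1348 ± 10.1 FPKM in the obese control (-0.51, adjusted p 2.25e-11). Eif3a, a subunit of an initiation factor, was higher with orlistat (0.25, adjusted p 4.78e-06), and Eef1a1, an elongation factor with a TOP mRNA, was higher at the low dose (0.18, adjusted p 1.72e-08) and lower at the medium dose (-0.23, adjusted p 9.78e-10). Of 43 ribosome biogenesis genes, 16 were called lower and 6 higher with orlistat. In the obese control against the normal control 20 were called lower and 7 higher, where 49 members were higher. In that comparison 28.4% of all genes tested were called lower and 26.7% higher. Rrs1, an assembly factor of the 60S subunit, averaged 8.48 ± 0.3 FPKM in the obese control and 17.5 ± 0.650 FPKM in the normal control (-0.96, adjusted p 2.26e-08). Wdr43, of the small subunit processome, was also lower in the obese control (-0.66, adjusted p 3.6e-09), and so was Gnl3, or nucleostemin (-0.39, adjusted p 1.22e-06).

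Of 19 genes that control ribosome production or translation, 4 were called higher and 6 lower in the obese control relative to the normal control. Of all genes tested, 26.7% were called higher and 28.4% lower. Relative to the obese control 8 of the 19 were called higher and 3 lower with orlistat, and 3 and 6 at the low dose. The counts were 3 and 7 at the medium dose and 7 and 6 at the high dose. Over all genes the shares were 26.2% and 25.6% with orlistat and 18.3% and 14.8% at the low dose. They were 21.8% and 20.1% at the medium dose and 26.6% and 25.3% at the high dose. Deptor, an inhibitor of mTOR, averaged 19.9 ± 1.71 FPKM with orlistat and 8.91 ± 0.298 FPKM in the obese control (1.08, adjusted p 1.94e-08). It was also higher than in the obese control at the low (0.69), medium (0.82) and high doses (1.21), and lower in the obese control than in the normal control (-1.14, adjusted p 6.91e-09). Eif4ebp2, a repressor of cap-dependent initiation, stood at 0.58 with orlistat and at 0.39, 0.42 and 0.63 at the low, medium and high doses, all called. Myc, a transcription factor that drives ribosome genes, was lower at the low (-0.35) and medium doses (-0.57) and higher at the high dose (0.28) relative to the obese control.

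Mitochondrial ribosomal proteins and proteasome subunits were taken for comparison as other large complexes. In the obese control relative to the normal control 41 of 73 tested mitochondrial ribosomal proteins and 26 of 38 proteasome subunits were called higher, with medians of 0.17 and 0.18, where the members' median was 0.18. With orlistat relative to the obese control 46 of 73 tested mitochondrial ribosomal proteins and 27 of 38 proteasome subunits were called lower (medians -0.23 and -0.27, against -0.46 for the members). At the low dose 19 and 20 were called lower, with medians of -0.08 and -0.12, where the members' median was -0.0048. At the medium dose 26 and 31 were called lower, with medians of -0.10 and -0.20, where the members' median was -0.28. At the high dose 43 and 27 were called lower, with medians of -0.20 and -0.25. Calls in the other direction numbered 1 and 2 in the obese control and also with orlistat. They numbered 1 and 0 at the low and medium doses and 2 and 0 at the high dose. Over all genes tested, 26.7% were called higher in the obese control than in the normal control. Called lower than in the obese control were 25.6% with orlistat and 14.8%, 20.1% and 25.3% at the low, medium and high doses. No test set these lists against the members.

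Markers of several other cell types also moved. Kupffer cell markers, 9 of 9 present and none at 0, summed to 317 to 337 FPKM with orlistat, 303 to 314 FPKM in the obese control, 385 to 397 FPKM at the low dose, 252 to 259 FPKM at the medium dose, 257 to 260.5 FPKM at the high dose and 181 to 182 FPKM in the normal control. Endothelial markers, with 5 of 6 in the table and none at 0, summed to 79.4 to 80.5 FPKM with orlistat, 54.0 to 56.1 FPKM in the obese control, 75.5 to 77.3 FPKM at the low dose, 77.8 to 79.0 FPKM at the medium dose, 90.6 to 91.2 FPKM at the high dose and 40.6 to 41.0 FPKM in the normal control. Red blood cell markers, 5 of 5 present and none at 0, summed to 1086 to 1455 FPKM with orlistat, 1364 to 1654 FPKM in the obese control, 935 to 1142 FPKM at the low dose, 1115 to 1369 FPKM at the medium dose, 1044 to 1283 FPKM at the high dose and 848 to 896 FPKM in the normal control. Of the 4 exocrine pancreas markers Prss1 and Pnlip were at 0 in every library, and the list summed to 8.64 to 9.53 FPKM with orlistat, 12.4 to 12.6 FPKM in the obese control, 8.66 to 10.6 FPKM at the low dose, 8.48 to 10.9 FPKM at the medium dose, 8.26 to 8.99 FPKM at the high dose and 8.02 to 8.98 FPKM in the normal control. The 1 tested gene of that list, Cela1, was called higher in the obese control than in the normal control (0.54, adjusted p 2.65e-05) and lower with orlistat (-0.44) and at the low (-0.40), medium (-0.36) and high doses (-0.48) than in the obese control. Hepatocyte markers summed to 86922 to 92817 FPKM with orlistat, 105821 to 108162 FPKM in the obese control and 90726 to 96307 FPKM in the normal control. At the low, medium and high doses they summed to 98224 to 103099, 96799 to 101604 and 96336 to 96625 FPKM. Lymphocyte markers overlapped between orlistat (7.20 to 8.75 FPKM) and the obese control (8.19 to 10.7 FPKM). Their sums were 9.08 to 9.67, 8.05 to 8.79 and 7.26 to 9.75 FPKM at the low, medium and high doses. In the normal control they were 7.41 to 8.50 FPKM. The part of any of these cells in the members' levels was not tested.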

How the data were processed

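Liver RNA was sequenced in 18 libraries on an Illumina instrument from 1 µg of total RNA, per the labels' protocols. Tools named in the submitters' processing notes are CASAVA 1.7 and Bowtie 0.12.2, and the genome build named there is mm8, a mouse build. The gene IDs of the table are rat Ensembl IDs, so which rat build and annotation they rest on was not given in the sources used here. No coordinates from the table are printed. The authors deposited 1 table of FPKM per gene and library, with gene lengths, symbols and types per the file headers. Multiplied by gene length, the values of a library were multiples of a single step for 100% of genes (tolerance 0.001), so whole reads were recovered (16.6 to 26.2 M, mega, per library). How strand and reads shared between copies were counted was not given in the sources used here.

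From these, log2(FPKM + 1) was compared with limma 3.58.1 (R 4.3.3), with a mean-variance trend, in 1 fit of 6 groups over 11945 genes at 1 FPKM or more in at least 3 libraries, two-sided, with Benjamini-Hochberg adjustment over all of them and a threshold of 0.05. Shares of reads used the recovered reads. Tests were checked on simulated data. Alternatives were a pseudocount of 0.1, no filter, TPM, quantile normalization, voom on recovered reads, a replicate block, a fit of the compared groups alone, sums over rows of the same protein, and leaving out each library; removing the length trend, leaving out the mitochondrial genome and 3 comparisons were added after seeing the data.

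The members and lists were chosen with earlier results of these data known. Named members were the 5 largest rises and falls per comparison among called members whose groups did not overlap, the 8 with the widest within-group spread, the 8 with the highest mean, the 8 with the smallest F-test p, the relatives ending in l or l1 with their namesakes, and the stalk genes; for other lists, up to 3 genes by smallest F-test p. One gene that this rule names is not reported here. The LOC rows were named after their values were seen. Python 3.11.15 with scipy 1.17.1 and matplotlib 3.10.9 was used for shares, intervals and figures.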

Additional observations from a re-analysis of the deposited data

How the results depend on the processing

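Of 155 recomputed counts of called members, 154 lay within 1.5 times the reported count. The exception was the obese control against the normal control on the TPM scale, with 35 called members. These counts join both directions. With the length trend taken out, 33 members were called higher and 9 lower in that comparison, beside 49 and 4 as reported. Leaving out each library gave 50 to 55 called members for that comparison, 62 to 64 for orlistat, 15 to 18 (low), 52 to 58 (medium) and 58 to 61 (high) for the doses against the obese control, 55 to 59 for medium and 55 to 57 for high against low, 54 to 60 for orlistat against the normal control and 69 to 72 for the F-test. Of 128 recomputed medians of members, 38 were marked as moved from the reported median under other processing and 11 on leaving out a library. As a share of summed FPKM in place of reads, the members stood at 105.6% of the normal control in the obese control, and at 80.1% with orlistat, 86.8% at the medium dose and 87.1% at the high dose of the obese control. With the C exactly at the annotated start, 31.7% of symbols had a TOP-like start, beside 2.63% of all entries. Of 58 named differences, 43 were called under every alternative and 15 were not under at least 1, and 2 reversed on summing rows: Rpl30 at the medium against the low dose (-0.20) and 1 Rpl7a row with orlistat against the normal control (0.092); the cause was not tested. Libraries that share a replicate number did not deviate together (0 of 45 pairs above a correlation of 0.1). A link with a small effect on levels would not show in this check. The labels do not say whether the numbers pair samples. A replicate block gave 54 called members for the obese control against the normal control, 65 for orlistat, 21, 56 and 62 for the low, medium and high doses and 71 for the F-test. The block ended 1 named call, Rps6 with orlistat against the normal control (adjusted p 0.0625). Depth limits rows under a few FPKM and cannot separate reads of near-identical rows.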
